A study of Homo sapiens with 12 samples.

Results

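IL32, PTPRN, PLAU, KCNC1 and C1orf64 are 5 weakly expressed genes of T47D breast cancer cells, taken by their symbols from the 25370 genes of a count table. They were chosen by their fold changes against vehicle in these same libraries, which were large for genes of their abundance, so their comparisons, with vehicle and between the treated groups that entered the choice, are given as a description, without p-values. T47D is a human breast cancer line that expresses the estrogen receptor. Anastrozole blocks aromatase, the enzyme that makes estrogens from androgens, and E2 is estradiol, the main ligand of the estrogen receptor. The cells were kept in medium with charcoal-stripped serum, which is depleted of steroids, and then without serum. They received vehicle, anastrozole at 10 nM, E2 at 0.1 nM, or anastrozole at 10 nM together with E2 at 0.1 nM (anastrozole plus E2), for 12 hours by the sample labels, with 3 replicates (a, b and c) per group. The methods of the study name a longer treatment, and the difference cannot be resolved from the files. The labels do not say that the replicates came from separate cultures. The methods speak of independent experiments for gene expression data in general, without naming these libraries, so the errors and tests below measure the spread between these samples, part of which may be technical.

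The libraries held 9914253 to 17009776 reads counted on genes, which was 32.7% to 33.5% of the reads in the table. CPM denotes counts scaled to a common library size with TMM normalization, and 3 counts corresponded to 0.177 to 0.303 CPM, depending on the library. Counting limits cover counting error only, because the reads carry no molecular identifiers. All 9 luminal epithelial markers were present, with summed levels of 10130 to 11190 CPM per library. In contrast, 5 of 6 stromal markers (all but COL1A1) and all 4 endothelial markers stayed below 1 CPM in each of the 12 libraries. Replicates a and c of anastrozole stood farthest apart among replicate pairs, with a chi-square over degrees of freedom of 4.62, where the others had 1.27 to 2.56.

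The 5 genes have no common pathway. IL32 encodes a proinflammatory cytokine that is induced by TNF and other signals through NF-kappaB in immune and epithelial cells. PTPRN encodes a catalytically inactive receptor-type tyrosine phosphatase of dense-core secretory granules, known from neuroendocrine cells and as an autoantigen in autoimmune diabetes. PLAU encodes urokinase, the secreted serine protease that turns plasminogen into plasmin and is tied to invasion in breast cancer. KCNC1 encodes a voltage-gated potassium channel subunit of the Shaw family, best known from fast-spiking neurons. C1orf64, now named SRARP (steroid receptor-associated and regulated protein), encodes a protein found mostly in estrogen receptor-positive breast tissue. E2 acts on transcription through the estrogen receptor, which binds estrogen response elements (EREs) or is tethered to other factors on DNA.

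In GRCh37, the build of the alignment (hg19), IL32 (ENSG00000008517) lies at chr16:3115298-3132193 on the plus strand and KCNC1 (ENSG00000129159) at chr11:17756321-17878351 on the plus strand. PTPRN (ENSG00000054356) lies at chr2:220154345-220174370 on the minus strand. PLAU (ENSG00000122861) lies at chr10:75668935-75677254 and C1orf64 (ENSG00000183888) at chr1:16330731-16335302, both on the plus strand. All are protein-coding in GENCODE. Promoter windows of 250 bases upstream of RefSeq start sites were searched on both strands for the full ERE (GGTCA, any 3 bases and TGACC), its half-site GGTCA (which the full ERE also contains), the AP-1 motif TGANTCA and the cyclic AMP response element TGACGTCA (CRE). The CRE was added after the sequences had been read. The 5 genes had 9 windows, and the full ERE and the AP-1 motif were in 0 of them, where 0.0399% and 6.57% of all 35116 windows held these motifs. A half-site was in 1 window each of C1orf64, PTPRN and IL32, a motif that 32.7% of all windows held. A CRE was in 1 window of IL32, and 1.65% of all windows held one. Because this motif was chosen from the sequences themselves, nothing is read from that share. PLAU and KCNC1 had no match to any of these letters. A match is a description of these letters and not a binding site. The windows of IL32 and C1orf64 upstream of their first RefSeq start (GRCh38.p14, a different build from that of the counts) are shown because they hold these matches in 1 gene that was raised and 1 that was lowered by E2, with capitals marking the CRE in IL32 (chr16:3065153-3065402, plus strand) and the half-site in C1orf64 (chr1:16003986-16004235, plus strand), both from RefSeq.
IL32: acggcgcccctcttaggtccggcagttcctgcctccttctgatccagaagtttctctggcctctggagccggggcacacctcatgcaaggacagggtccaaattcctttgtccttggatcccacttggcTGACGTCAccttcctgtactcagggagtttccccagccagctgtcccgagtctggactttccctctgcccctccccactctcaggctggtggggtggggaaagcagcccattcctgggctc
C1orf64: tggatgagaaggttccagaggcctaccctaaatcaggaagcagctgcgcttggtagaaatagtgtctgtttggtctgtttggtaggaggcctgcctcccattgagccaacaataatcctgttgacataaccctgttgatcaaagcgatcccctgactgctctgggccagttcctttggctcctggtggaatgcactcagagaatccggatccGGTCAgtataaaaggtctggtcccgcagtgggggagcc

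Over the 12 libraries the mean level was 8.30 CPM for IL32, 5.88 CPM for C1orf64, 3.13 CPM for PLAU, 2.80 CPM for KCNC1 and 2.15 CPM for PTPRN. Between 37.9% and 48.2% of the 21132 tested genes were lower. Per kilobase of exon the order changed, with 2.59 CPM per kb for IL32, 1.93 for C1orf64, 1.06 for PLAU, 0.261 for PTPRN and 0.194 for KCNC1, whose exons cover 14417 bases. The counts behind these levels ran from 11 (PTPRN in vehicle a) to 171 (IL32 in anastrozole plus E2 a) per library.

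IL32 was higher in every treated library than in every vehicle library. It had 3.40, 3.73 and 4.12 CPM (42, 49 and 53 counts) in vehicle a, b and c. With anastrozole it had 9.52, 9.40 and 10.04 CPM (132, 93 and 115 counts), and with E2 8.44, 9.51 and 8.82 CPM (107, 161 and 127 counts). The combination gave 10.55, 11.28 and 10.87 CPM (171, 162 and 152 counts). The 3 vehicle libraries were thus at less than any treated library by a wide margin, and the 3 combination libraries were the highest of all 12. Against vehicle, the log2 fold change was 1.36 (SE 0.16) with anastrozole, 1.25 (SE 0.15) with E2 and 1.53 (SE 0.14) with both. Ratios of the pooled counts, with exact 95% counting intervals, were 2.57 (2.11 to 3.15), 2.39 (1.97 to 2.91) and 2.90 (2.40 to 3.52). Leaving out any 1 library kept the 3 log2 fold changes between 1.19 and 1.61. The summed level of the 4 immune cell markers given here was 3.73 to 5.29 CPM in vehicle. With anastrozole the sum was 6.06 to 8.22 CPM, and with E2 5.671 to 6.545 CPM. With the combination, where IL32 was highest, the sum was 5.43 to 6.22 CPM. This sum came mainly from CD68, at 3.12 to 7.14 CPM over the 12 libraries, whereas the defining markers PTPRC and CD3E reached at most 0.233 and 0.152 CPM in any library. The part of other cells in the IL32 level was not tested. In bulk RNA, a change in the share of cells that express a gene and a change in RNA per cell cannot be told apart.

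PTPRN had the lowest mean CPM of the 5 genes over the 12 libraries and also lay higher in all treated libraries than in vehicle. In vehicle it had 0.890, 0.912 and 1.56 CPM, from only 11, 12 and 20 counts. Anastrozole libraries had 3.03, 2.63 and 2.62 CPM (42, 26 and 30 counts), E2 libraries 1.81, 2.42 and 2.57 CPM (23, 41 and 37 counts), and combination libraries 2.65, 2.71 and 2.002 CPM (43, 39 and 28 counts). Vehicle c was nearest to the treated groups, and E2 a was the closest treated library to it. The log2 fold change against vehicle was 1.30 (SE 0.29) with anastrozole, 1.02 (SE 0.29) with E2 and 1.13 (SE 0.27) with both. Without vehicle c these became 1.61, 1.34 and 1.45. The pooled ratios of 2.48 (1.72 to 3.64), 2.05 (1.42 to 2.998) and 2.202 (1.54 to 3.21) had the widest counting intervals among the genes that were raised. Of the neuroendocrine markers, SNAP25, CHGA and RBFOX3 stayed below 1 CPM in all libraries, SYP and INSM1 did not, and their summed level overlapped between groups, with 9.06 to 11.3 CPM in vehicle and 8.29 to 11.4 CPM in treated libraries.

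PLAU had 1.94, 1.82 and 1.40 CPM in vehicle a, b and c (24, 24 and 18 counts). It had 2.81, 3.13 and 3.58 CPM with anastrozole (39, 31 and 41 counts), 4.02, 3.78 and 3.89 CPM with E2 (51, 64 and 56 counts) and 3.58, 3.83 and 3.72 CPM with both (58, 55 and 52 counts). All 9 treated libraries lay above all 3 vehicle libraries, and each anastrozole library lay below each E2 library. The log2 fold change against vehicle was 0.87 (SE 0.25) with anastrozole, 1.17 (SE 0.22) with E2 and 1.10 (SE 0.22) with both, and the pooled ratios were 1.83 (1.34 to 2.52), 2.26 (1.69 to 3.05) and 2.15 (1.61 to 2.91). C10orf55, a long noncoding RNA gene at chr10:75669727-75682535 on the opposite strand, shares 915 bases with the exons of PLAU, which is 31.0% of them. C10orf55 had 0.728, 0.684 and 0.622 CPM in vehicle a, b and c, 1.23, 1.11 and 1.13 CPM with anastrozole, 1.501, 1.48 and 1.53 CPM after E2, and 1.67, 1.74 and 1.43 CPM after both. Its levels therefore followed the same order of vehicle, anastrozole and E2 as those of PLAU, with log2 fold changes of 0.77 (SE 0.41), 1.14 (SE 0.36) and 1.24 (SE 0.35) from 26 to 72 counts per group. Whether the counting used the strand is not stated in the sources used here, and reads from the shared bases cannot be assigned to either gene if it did not. The remaining members overlapped less with other annotated exons, from 0% in KCNC1 to 15.3% in C1orf64, and the noncoding genes that share exon bases with them had no rows of their own in the table.

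KCNC1 was lower with E2, alone or with anastrozole, than with vehicle. Vehicle a, b and c had 3.80, 4.03 and 4.12 CPM (47, 53 and 53 counts). E2 libraries had 2.37, 2.07 and 1.60 CPM (30, 35 and 23 counts), and combination libraries 2.22, 2.23 and 1.86 CPM (36, 32 and 26 counts). Anastrozole libraries spread over 3.10, 3.94 and 2.27 CPM (43, 39 and 26 counts), so that replicate b lay within the vehicle range and replicate c within the range of the E2 groups. The log2 fold change against vehicle was -0.37 (SE 0.21) with anastrozole, -0.99 (SE 0.21) with E2 and -0.92 (SE 0.21) with both. For anastrozole it ran from -0.55 without anastrozole b to -0.20 without anastrozole c. The pooled ratios were 0.769 (0.596 to 0.990), 0.501 (0.381 to 0.656) and 0.529 (0.405 to 0.688).

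C1orf64 was lowest with E2 alone, and its levels under anastrozole overlapped those of vehicle. It had 7.28, 6.46 and 7.16 CPM in vehicle a, b and c (90, 85 and 92 counts) and 6.49, 6.97 and 8.20 CPM with anastrozole (90, 69 and 94 counts). With E2 it had 4.49, 3.43 and 3.40 CPM (57, 58 and 49 counts), below every other library. The combination gave 6.91, 5.01 and 4.72 CPM (112, 72 and 66 counts), with replicate a at the vehicle level and replicates b and c between vehicle and E2. The log2 fold change against vehicle was 0.05 (SE 0.15) with anastrozole, -0.90 (SE 0.16) with E2 and -0.31 (SE 0.14) with both, and without combination a the last was -0.52. The pooled ratios were 1.03 (0.866 to 1.23), 0.536 (0.438 to 0.653) and 0.806 (0.676 to 0.962).

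**Figure D1:**
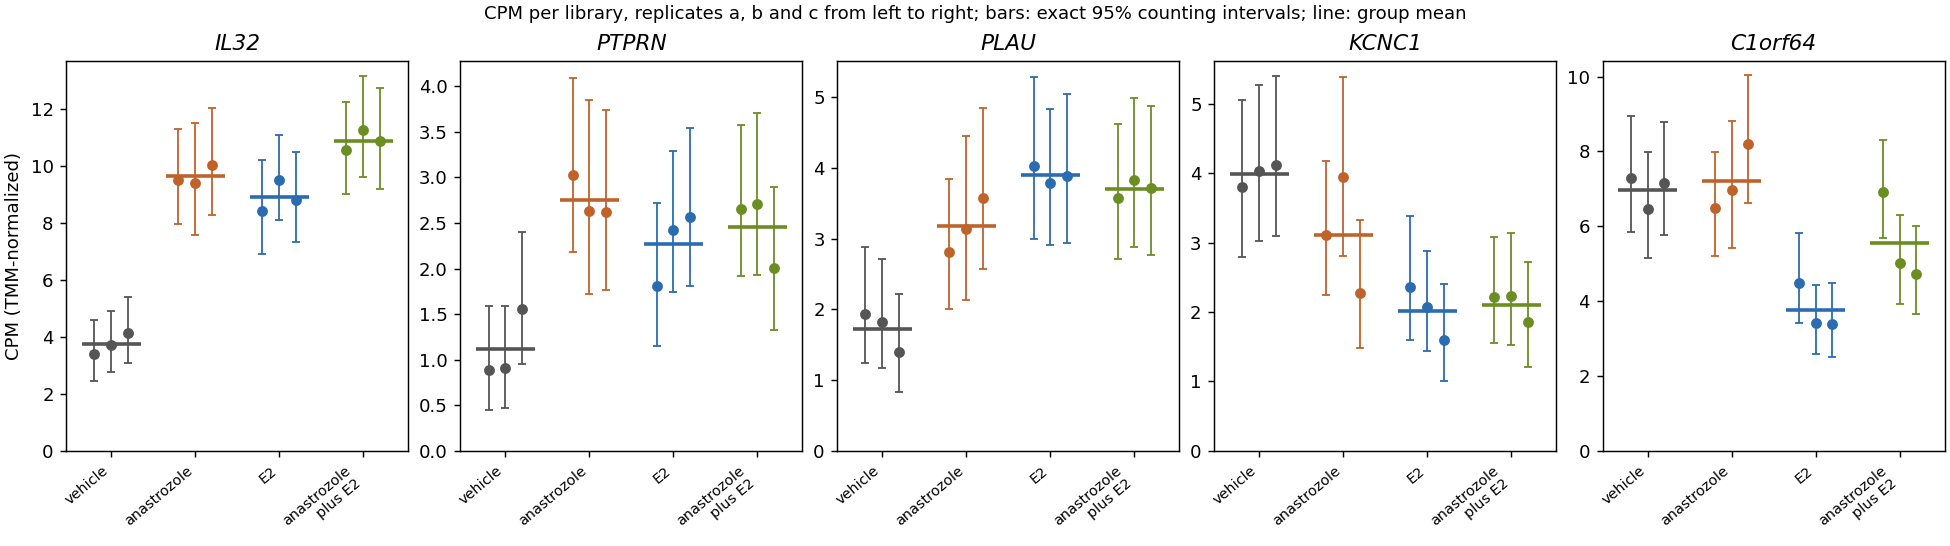
Level of the 5 genes in CPM (TMM-normalized, axis from 0) in each of the 12 libraries, with replicates a, b and c of each group from left to right, exact 95% counting intervals as bars and the group mean as a line. IL32, PTPRN and PLAU sit higher in all 9 treated libraries than in the 3 vehicle libraries, KCNC1 is low in the 6 libraries that received E2, and C1orf64 is lowest in the 3 E2 libraries.

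Read against the whole table, 3 of the 5 genes passed an adjusted p of 0.05 (edgeR's quasi-likelihood test, Benjamini-Hochberg) with anastrozole, where 3.67% of all tested genes did. With E2 5 of 5 passed, against 12% of all tested genes, and with the combination 4 of 5, against 5.04%. Because the genes were chosen for these changes, nothing is read from these counts. They also depended on the test and on single libraries, with 1, 4 and 3 genes past the threshold by limma-voom. By DESeq2 3 passed with the combination, and none had an adjusted p with either single treatment. PLAU was no longer past it for anastrozole without anastrozole b, anastrozole c, vehicle a or vehicle c, nor PTPRN for E2 without vehicle a, and C1orf64 was past it for the combination without combination a. Across 10862 genes the log2 fold changes followed GC content with a Spearman's rho of -0.531 for anastrozole, -0.548 for E2 and -0.0325 for the combination, and with the GC trend removed the values of IL32 were 1.45, 1.34 and 1.54. For anastrozole and E2 the same correction gave 1.37 and 1.10 for PTPRN, 0.92 and 1.22 for PLAU, -0.26 and -0.88 for KCNC1, and 0.082 and -0.86 for C1orf64. Libraries did not overlap with vehicle as follows. IL32, PTPRN and PLAU were apart from vehicle under all 3 treatments, KCNC1 under both E2 treatments and C1orf64 under E2 alone, where 17.7%, 25.4% and 18.5% of all tested genes had groups that did not overlap for anastrozole, E2 and the combination.

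Of the 3663 genes with a mean of 1 to 10 CPM, 1.5% passed the threshold for anastrozole, 4.91% for E2 and 3.82% for the combination. The smallest absolute log2 fold change among those that passed was 0.42, 0.35 and 0.35, and no gene of this class with a smaller change was called. By absolute log2 fold change, IL32 was number 5 of 55 such genes for anastrozole, 5 of 180 for E2 and 3 of 140 for the combination. PTPRN stood at 6, 16 and 11, and PLAU at 20, 7 and 14. KCNC1 stood at 19 for E2 and 29 for the combination, and C1orf64 at 29 for E2. These ranks use the values by which the genes were chosen, and they leave out genes under 1 CPM.

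**Figure D2:**
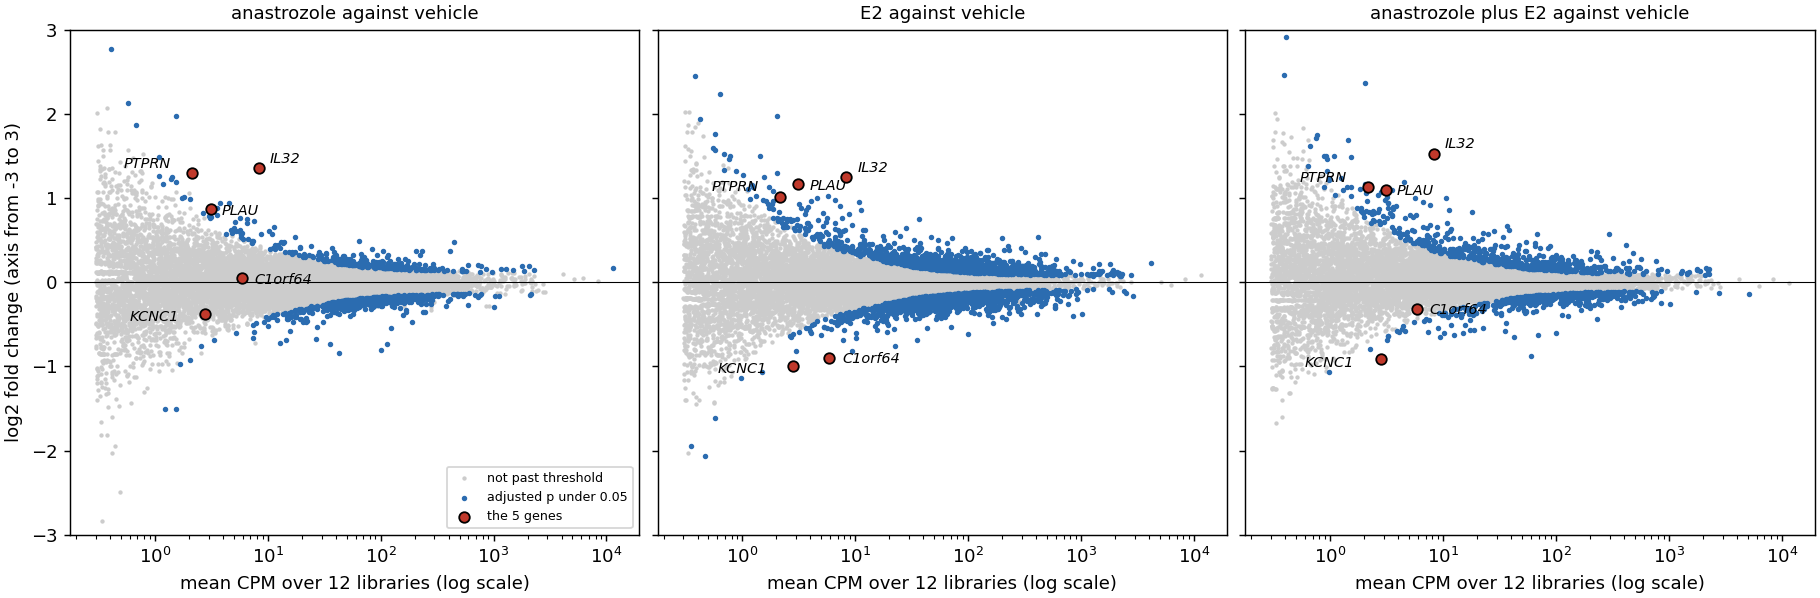
Log2 fold change against vehicle (axis from -3 to 3) by mean CPM (log scale) for genes of at least 0.3 CPM, in a panel per treatment, with 1 gene per panel beyond the axis. Grey points did not pass an adjusted p of 0.05, blue points did, and red points are the 5 genes. These lie at 2.15 to 8.30 CPM, where the smallest called change was several times that of abundant genes.

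The spread between replicates was mostly no larger than the spread that counting gives. An index of dispersion, which is 1 where 3 replicate counts vary as much as counting predicts, was computed for each of the 20 combinations of gene and group. It was under 1 in 14 of them, with a median of 0.539. With 3 counts the index varies widely by counting alone and lies under 1 more often than over it. These values therefore do not show that spread beyond counting was absent. The index was over 2 in 2 of the 20, at 3.89 for C1orf64 with the combination and 2.43 for KCNC1 with anastrozole. In the first, combination a lay above the other libraries, and in the second the libraries were spread from 2.27 to 3.94 CPM. PLAU had the lowest index, 0.0541 with E2, where its coefficient of variation of 3.10% was below the 13.3% that counting predicts. Across the 30 comparisons of the 5 genes, the standard error of the log2 fold change was 1.02 to 1.21 times the error from counting alone, with a median of 1.14. The fit draws its dispersion from all tested genes, so this ratio is not a separate measure of the spread of these 5. For PTPRN against vehicle the counting error was 0.26 beside a full SE of 0.27 to 0.29, and for IL32 it was 0.14 beside 0.14 to 0.16.

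**Figure D3:**
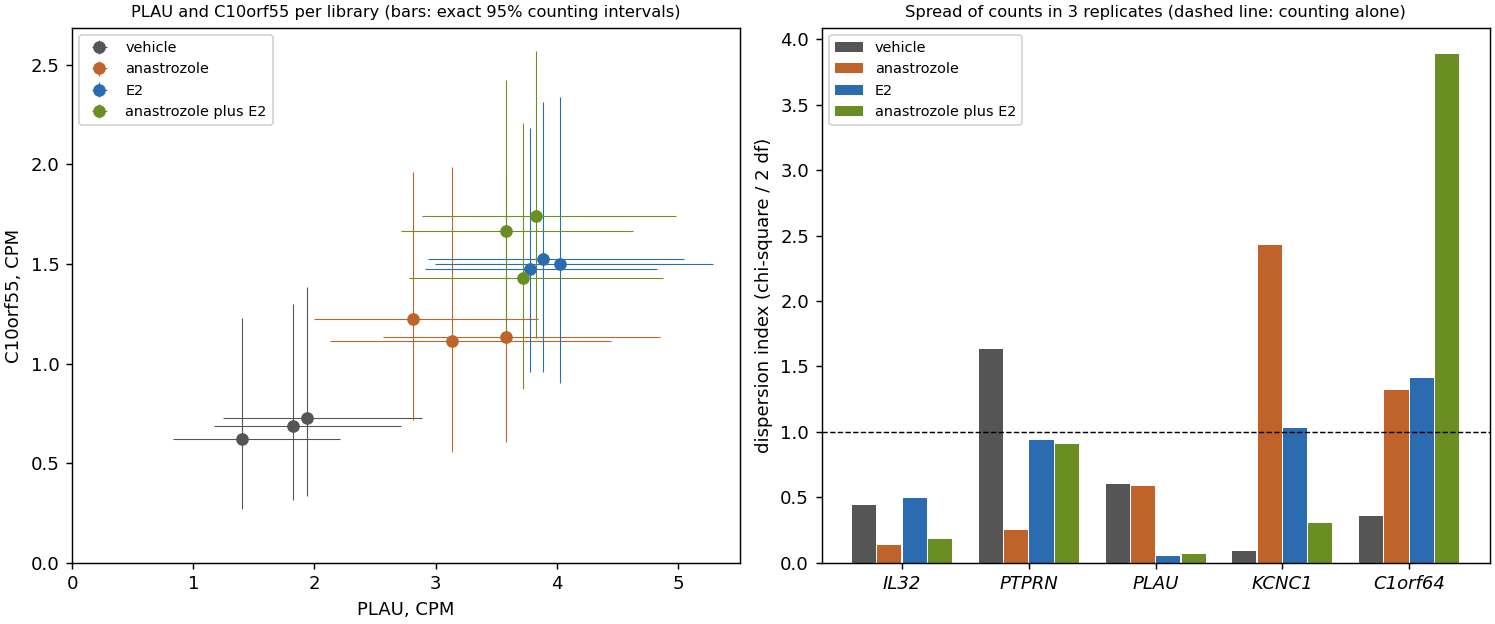
Left, C10orf55 against PLAU in CPM per library with exact 95% counting intervals, in which the 3 vehicle libraries lie at the lower left and the 6 libraries with E2 at the upper right. Right, the index of dispersion of the 3 replicate counts (chi-square over 2 degrees of freedom) for each gene and group as bars from 0, with a dashed line at 1 for counting alone, which C1orf64 with the combination (3.89) and KCNC1 with anastrozole (2.43) exceed most.

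The comparisons between treated groups leave out the vehicle libraries, but all treated libraries had entered the choice of the genes. The values of the 5 genes are therefore given here with the interval of the fit (95%, unadjusted) and without a test, and calls are given over the whole table only. Between anastrozole and E2, 1.33% of all tested genes passed the threshold. C1orf64 was higher with anastrozole by a log2 fold change of 0.95 (SE 0.17), 7.22 against 3.77 CPM, in 3 of 3 libraries, and its log2 fold change ranged from 0.85 to 1.08 over the 13 alternatives. KCNC1 was 0.62 higher on the log2 scale with anastrozole (SE 0.24, interval 0.15 to 1.10), and its libraries overlapped. IL32 differed by 0.11 (-0.14 to 0.37), PTPRN by 0.28 (-0.18 to 0.75) and PLAU by -0.29 (-0.70 to 0.11). The libraries of PTPRN, PLAU and C1orf64 did not overlap between these groups, which was so for 13.1% of all tested genes. The intervals of PTPRN and PLAU reach 0.75 and -0.70 on the log2 scale, so these values do not show that the 2 agents gave the same level.

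The combination against E2 shows the levels when anastrozole was added to E2. Over the whole table, 6.74% of all tested genes passed the threshold in this comparison. C1orf64 was higher with the combination by a log2 fold change of 0.58 (SE 0.16), 5.55 against 3.77 CPM, and all 3 combination libraries lay above all 3 E2 libraries, as they did in either direction for 21.1% of all tested genes. The log2 fold change was 0.38 without combination a, and 0.52 without E2 b or without E2 c. It was 0.55 after removal of the GC trend, which was strong in this comparison (Spearman's rho of 0.681 between log2 fold change and GC content across 10862 genes). IL32 was 0.28 higher on the log2 scale (SE 0.11, interval 0.06 to 0.50) with libraries that did not overlap. Its lowest log2 fold change over the alternatives was 0.199. PTPRN differed by 0.11 (-0.34 to 0.55), PLAU by -0.07 (-0.42 to 0.28) and KCNC1 by 0.08 (-0.40 to 0.55). The sign of KCNC1 turned with the GC trend removed and without E2 c, and that of PTPRN without E2 a.

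The combination against anastrozole shows the levels when E2 was added to anastrozole, a comparison in which 2.9% of all tested genes passed the threshold. KCNC1 was -0.54 on the log2 scale (SE 0.23), 2.10 against 3.10 CPM, and its libraries did not overlap. Without anastrozole c, its difference was -0.72. C1orf64 differed by -0.37 (SE 0.15), with overlapping libraries, and ranged from -0.57 (without combination a) to -0.26 without 1 replicate. IL32 differed by 0.17 (-0.07 to 0.41), PLAU by 0.23 (-0.17 to 0.62) and PTPRN by -0.17 (-0.62 to 0.28). Without combination c, PTPRN differed by -0.05. The log2 fold changes of this comparison also followed GC content (Spearman's rho of 0.563 across 10862 genes). With the GC trend removed, the values were 0.093 for IL32, 0.19 for PLAU, -0.24 for PTPRN, -0.64 for KCNC1 and -0.39 for C1orf64. The libraries of IL32, PLAU and KCNC1 did not overlap, which was so for 16.9% of all tested genes. For PLAU they nearly touched, at 3.5778 CPM in anastrozole c and 3.5784 CPM in combination a, where 1 count was 0.0617 CPM.

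**Figure D4:**
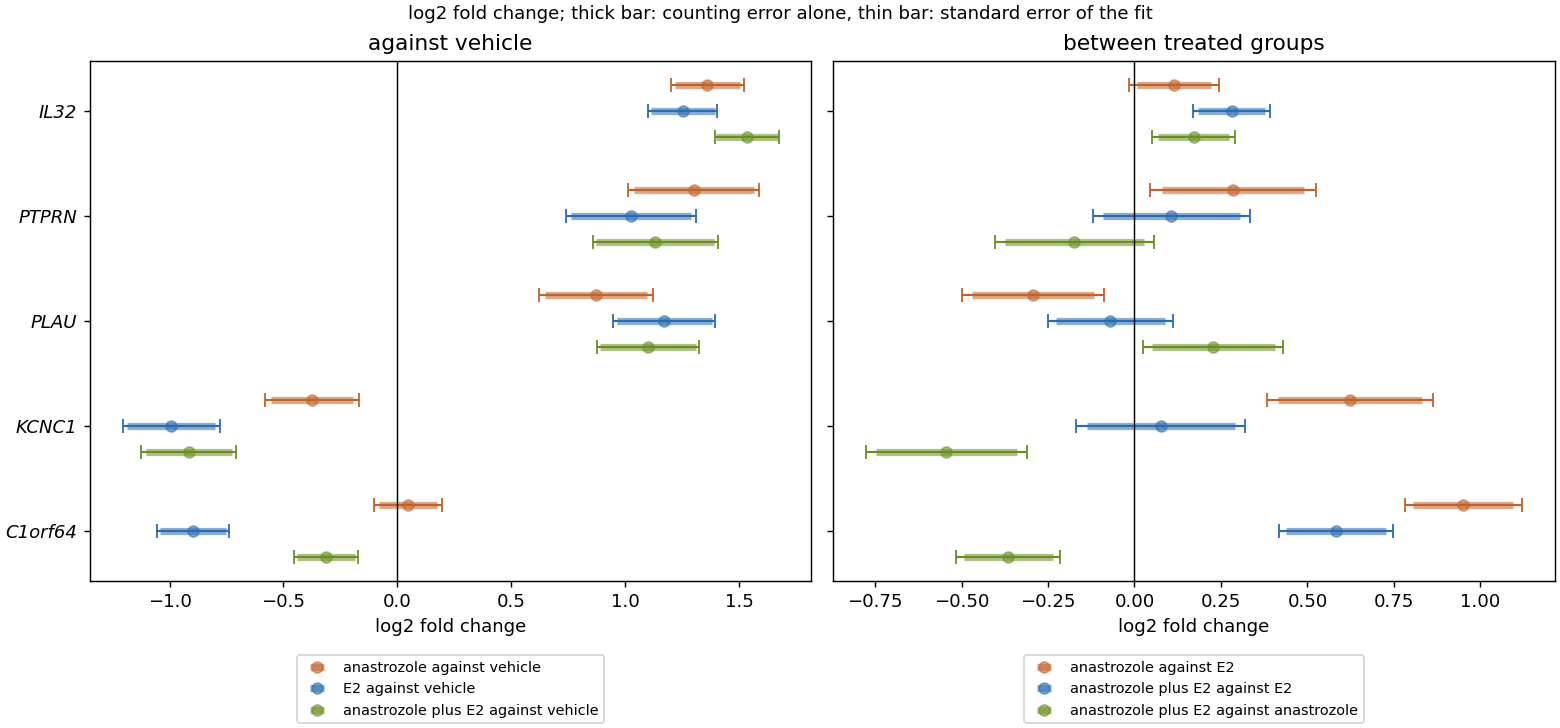
Log2 fold change of the 5 genes against vehicle (left) and between treated groups (right), with the standard error of the fit as a thin bar and counting error alone as a thick bar. The 3 treatments gave values of 0.87 to 1.53 for IL32, PTPRN and PLAU against vehicle, and C1orf64 at 0.95 for anastrozole against E2 lies farthest from 0 in the right panel.

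In order of mean level, IL32 was lowest in vehicle, then E2, anastrozole and the combination, and among these neighbours only the libraries of E2 and anastrozole overlapped. For PTPRN the order was vehicle, E2, combination and anastrozole, and all neighbours among the treated groups overlapped. For PLAU it was vehicle, anastrozole, combination and E2, with overlap between the combination and E2 alone. Anastrozole and the combination nearly touched there, at 3.5778 and 3.5784 CPM. For KCNC1 it was E2, combination, anastrozole and vehicle, with overlap at the first and the last step. For C1orf64 it was E2, combination, vehicle and anastrozole, with overlap at every step but the first. If the effects of both agents added on the log2 scale, the product term of a fit to all 12 libraries would be 0. It was -1.08 (SE 0.19) for IL32, -1.20 (SE 0.37) for PTPRN and -0.94 (SE 0.31) for PLAU, the combination being near the single treatments and short of their sum. It was 0.45 (SE 0.32) for KCNC1 and 0.53 (SE 0.22) for C1orf64, and the last was 0.33 without combination a. These terms share the vehicle libraries with the choice of genes and are given without a test. The GC trend was not removed from them. That trend was strong for both single treatments and weak for the combination (Spearman's rho of -0.531 for anastrozole, -0.548 for E2 and -0.0325 for both). How far it moved these terms was not tested.

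Genes of related function were taken from lists drawn up with earlier results of these data known. In the list of inflammatory cytokines and NF-kappaB factors, the setting in which IL32 is usually placed, 3 of 20 genes tested were raised with anastrozole, 4 with E2 and 5 with the combination, and 0 were lowered (by edgeR at the same threshold). At an adjusted p under 0.05, 1.4%, 6.06% and 2.71% of all tested genes were raised and 2.27%, 5.95% and 2.33% lowered by anastrozole, E2 and the combination. The median log2 fold change of the list was 0.16, 0.09 and 0.30 (0.16, 0.16 and 0.30 over its 12 genes of at least 1 CPM), where that of all tested genes was 0. TNFAIP3, an inhibitor of NF-kappaB signalling, had 7.25 ± 0.356 CPM (SD, n = 3) in vehicle, 11.53 ± 1.76 with anastrozole, 13.2 ± 0.668 with E2 and 13.2 ± 0.436 with both, log2 fold changes of 0.66, 0.86 and 0.87. BIRC3, an inhibitor of apoptosis downstream of the same pathway, rose by 0.41, 0.76 and 0.67, and its level under anastrozole differed from that under E2 by -0.35 on the log2 scale (adjusted p = 0.000652 by edgeR). NFKB2, which encodes a precursor of an NF-kappaB subunit, rose by 0.19, 0.22 and 0.33. CCL20, a chemokine gene of 1.17 ± 0.334 CPM in vehicle, rose by 1.09 with E2 and 0.89 with both, and ICAM1, an adhesion molecule gene, by 0.35 with both. TNF, named above as an inducer of IL32, had log2 fold changes of 0.31, 0.29 and 0.20 and did not pass. NFKBIA, with 0.051, 0.039 and 0.085, did not pass either, nor did NFKB1, RELA and RELB.

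For PLAU, the list of the plasminogen system had 15 genes tested, of which 0 were raised and 1 was lowered with anastrozole, while 1 was raised and 1 lowered with E2, and 2 were raised and 0 lowered with the combination. Of all tested genes, 6.06% were raised and 5.95% lowered with E2, which for 15 genes is near 1 in each direction. The shares over all tested genes were 1.4% raised and 2.27% lowered with anastrozole, and 2.71% raised and 2.33% lowered with the combination. Its median log2 fold change was -0.03, 0.03 and 0.15, and -0.03, 0.03 and 0.09 over the 10 genes of at least 1 CPM. ST14, the membrane protease matriptase, changed by -0.17 with anastrozole and -0.13 with E2. ENO1, an enolase that also serves as a plasminogen receptor, rose by 0.08 with E2 and 0.16 with the combination, and LRP1, an endocytic receptor that clears protease complexes, by 0.13 with the combination. PLAUR, the receptor of urokinase, had 1.61 ± 0.657 CPM (SD, n = 3) in vehicle and 1.91 ± 0.515, 1.83 ± 0.601 and 2.22 ± 0.885 CPM with anastrozole, E2 and both, and it did not pass. The inhibitor SERPINE2 was at 0.729 CPM in vehicle and 0.966 to 1.24 CPM in the treated groups, and it did not pass. SERPINB2 was at no more than 0.0240 CPM in any group, and the related activator PLAT lay between 0.280 and 0.583 CPM and did not pass.

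For PTPRN, the list of dense-core secretory granule genes had 16 members tested, of which 0 passed with anastrozole. With E2 1 was raised and 2 were lowered, and with the combination 0 were raised and 1 was lowered. Over all tested genes, 6.06% were raised and 5.95% lowered with E2, and 2.33% were lowered with the combination. PAM, the enzyme that amidates peptide hormones, rose by 0.20 with E2, whereas the vesicle genes RAB3D and SYT7 changed by -0.23 and -0.13 with E2. PTPRN2, the paralog of PTPRN, was at 0.0519 to 0.0941 CPM and too low for a comparison. The median log2 fold change of this list was 0.01, -0.11 and 0.02, and 0.03, -0.04 and -0.05 over its 8 genes of at least 1 CPM, so that its sign with the combination depended on the weakest genes.

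For KCNC1, 17 of 23 voltage-gated potassium channel genes were tested, of which 0 were raised by anastrozole, 1 by E2 and 3 by the combination, beside 1.4%, 6.06% and 2.71% of all tested genes. The 1 of 17 with E2 is near that background. KCNC4, a related Shaw-type subunit, had 5.16 ± 0.453 CPM (SD, n = 3) in vehicle and 3.68 ± 0.546, 4.204 ± 0.475 and 4.83 ± 0.0938 CPM in the treated groups and did not pass, and KCNC2 was at 0.0477 CPM or less. KCNE4, an accessory subunit, rose by 0.48 with E2 and 0.47 with both, and KCNH2 and KCNH1, of the ether-a-go-go family, rose by 0.95 and 0.29 with both. The median log2 fold change of these 17 genes was 0.09, 0.20 and 0.29, and over the 8 of at least 1 CPM it was -0.08, 0.15 and 0.25, so that its sign with anastrozole depended on the weakest genes.

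For C1orf64, the list held steroid receptors, adaptor proteins of the YWHA family, to which its product is reported to bind, and HSPB7, its neighbour in the genome. Of the 11 genes given here, 2 were lowered with anastrozole and 2 with E2, beside 2.27% and 5.95% of all tested genes. ESR1, the estrogen receptor, changed by -0.14 with E2, PGR, the progesterone receptor, by -0.13 with anastrozole, and SFN by -0.29 and -0.15 with anastrozole and E2. HSPB7, a small heat shock protein gene, was at 0.446 ± 0.132 CPM (SD, n = 3) in vehicle and 0.932 ± 0.413, 0.845 ± 0.203 and 1.09 ± 0.744 CPM in the treated groups, from 4 to 28 counts per library, and did not pass. The median log2 fold change of these 11 genes lay between -0.01 and 0.03.

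The genes whose levels ran most like those of each member were sought among 14208 others with at least 1 CPM, by Pearson's r of log2 CPM over the 12 libraries, which share their groups and depth. They are a description without a test. IL32 ran most like WSB1 (r = 0.962), ARRDC3 (0.962) and VEGFA (0.947), of which VEGFA went from 189 CPM in vehicle to 242 to 246 CPM in the treated groups. PTPRN ran most like IL32 itself (0.912), then SLC16A9 (0.901) and CEACAM22P (0.9). PLAU ran most like PPP1R3E (0.964), NFIL3 (0.954) and TNFAIP3 (0.954). KCNC1 ran most like RGS6 (0.931), SLC9A2 (0.918) and INHBB (0.91), and C1orf64 like RDH16 (0.922), SELENBP1 (0.921) and ZNF76 (0.911). RDH16, a retinol dehydrogenase family gene, had 5.97 CPM in vehicle, 5.72 with anastrozole, 4.12 with E2 and 5.41 with both, which is the order seen for C1orf64 except that vehicle and anastrozole changed places.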

How the data were processed

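RNA-seq counts of 12 T47D libraries were used, in 4 groups of 3 by the treatment named in the labels. The authors aligned reads to hg19 with TopHat2 2.0.14 and Bowtie2 2.2.6, counted them on genes with HTSeq, and deposited raw counts without normalization. The strand setting and annotation of the counting are not given in the sources used here, and the labels name both polyA and total RNA. From the counts, 4238 genes at 0 in all libraries and 5 summary lines (reads on no gene were 58.6% to 59.9%) were removed. For each comparison, its 6 libraries were fitted in R 4.3.3 by edgeR 4.0.16 (TMM, robust quasi-likelihood F test, 2-sided, Benjamini-Hochberg adjustment over 21132 genes, threshold 0.05). SEs are the log2 fold change over the square root of F. The 5 genes get no p-values, also not in the planned tests between treated groups, because all libraries entered their choice. Counting intervals are exact (95%) and depend on depth alone. The code was tested on simulated data. Alternatives were DESeq2 size factors, filterByExpr, DESeq2 1.42.0, limma-voom (limma 3.58.1), a replicate block, a GC offset, both together, and leaving out each replicate. Loci came from GENCODE on GRCh37 and promoters from RefSeq. Members and gene lists were chosen with earlier results of these data known. Some genes of the lists are not reported here, and counts, medians and sums of the lists cover the remaining genes only. Named besides the members were up to 4 called genes per list and comparison with the largest change, their direct partners, the 3 genes of most similar pattern, and overlapping genes. For IL32, TNF and NF-kappaB genes that did not pass were also named.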

Additional observations from a re-analysis of the deposited data

How the results depend on the processing

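Of 195 alternative values of the 5 genes against vehicle, 194 stayed within the spread between replicates. The exception was PTPRN for anastrozole, which went from 1.30 to 1.61 without vehicle c. Among the 194, C1orf64 for anastrozole, at 0.048, turned to -0.055 without anastrozole c and -0.0034 without vehicle b. Of 183 values between treated groups, 4 turned direction, for KCNC1 and PTPRN in the combination against E2. For the combination against E2, the log2 fold change of C1orf64 was 0.55 with the GC offset, 0.58 with limma-voom and 0.52 with block and GC offset, and it ranged from 0.38 to 0.71 without 1 replicate. KCNC1 in that comparison turned to -0.025 with the GC offset and -0.032 with block and GC offset, and ranged from -0.060 to 0.19 without 1 replicate. PTPRN ranged from -0.014 to 0.23 there. KCNC1 for the combination against anastrozole ranged from -0.72 to -0.37, PTPRN for anastrozole against vehicle from 1.17 to 1.61, and the product terms of PTPRN and C1orf64 from -1.51 to -1.06 and from 0.33 to 0.66. The cause was not tested.

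Counts of genes past the threshold moved more. For anastrozole against vehicle (776), they were 419 with filterByExpr, 238 with DESeq2, 15 with limma-voom and 191 to 1651 without 1 replicate. For E2 against vehicle (2537), they were 1433 with DESeq2, 1379 with limma-voom, 1571 with the GC offset, 1475 with block and GC offset and 1741 to 2808 without 1 replicate. The combination against vehicle (1065) gave 463 with DESeq2, 347 with limma-voom and 682 to 964 without 1 replicate. Anastrozole against E2 (280) gave 160 with filterByExpr, 107 with DESeq2, 70 with limma-voom, 522 with the GC offset, 444 with block and GC offset and 107 to 414 without 1 replicate. The combination against E2 (1424) gave 647 with DESeq2, 451 with limma-voom, 174 with the GC offset, 186 with block and GC offset and 885 to 1176 without 1 replicate. The combination against anastrozole (612) gave 295 with filterByExpr, 236 with DESeq2, 90 with limma-voom and 234 to 1706 without 1 replicate.

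Same-lettered libraries correlated in their deviations from the group means by -0.14 to 0.32, not above 0.1 for every letter in any pair of groups, so the letters were not taken as pairing. With the replicate block, 180 genes passed for anastrozole against E2, and the counts of the other comparisons were 823, 2207, 1439, 1487 and 620. All 30 values of the 5 genes kept their direction under the block. Depth limits these values, with 11 to 171 counts per gene and library.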
